A study of Gasterosteus aculeatus with 34 samples.

Results

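The Y chromosome of the threespine stickleback (Gasterosteus aculeatus) is annotated in the deposited tables with predicted gene models rather than Ensembl genes, and 657 of the 22295 gene models carry chrY in their identifier. The models described here are those of chrY with a mean of at least 1 CPM (CPM scales each count to a common library total) over 34 brain libraries whose window number lies above the median of all such models. The window number is the integer that follows "gene-" in the identifier and is used as a rank of position along the chromosome; no coordinates are printed because the files pair none with the identifiers. Of 374 chrY models at 1 CPM or more, 181 had a window number above the median of 92, and 193 lay at or below it. A further 120 models above window 92 fell below 1 CPM and were not members. Just inside the minimum lay maker-chrY-snap-gene-119.111 at 1.001 CPM and maker-chrY-augustus-gene-140.70 at 1.02 CPM. Just outside lay maker-chrY-snap-gene-142.43 at 0.882 CPM and maker-chrY-snap-gene-135.32 at 0.877 CPM.

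The animals were 17 laboratory-reared males of the white ecotype, bred from wild-caught parents of the Canal Lake population. Each male had gone through 8 trials that held every treatment, and brains were taken 60 minutes after the last one, which sets the group. The control (4 males) saw empty flasks, the courtship group (4 males) a gravid female, the challenge group (5 males) a rival male, and the tradeoff group (4 males) a female and a rival together. Telencephalon and diencephalon were sequenced from every male, which gave 17 libraries a region. All the animals were unmanipulated males of a single ecotype, so neither a female nor another ecotype is among the groups. The fathers and the age of the males are not given in the labels used here.

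Sticklebacks have an XY system of sex determination, in which males carry a single Y and females none. The Y holds amhy, a copy of the anti-Müllerian hormone gene that directs male development. Outside a pseudoautosomal end that still recombines with the X, the Y passes from father to son without recombination, and many of its genes have a diverged partner on the X. In fish, the telencephalon is the front of the forebrain, with pallial and subpallial areas tied to learning and social behaviour. The diencephalon behind it holds the hypothalamus and thalamus. The identifiers of the members could be paired with no gene symbol, so their functions, and whether any of them is amhy, are not stated below. Markers of cell types could not be checked for the same reason.

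Gene counts ranged from 22802875 to 36656215 per telencephalon library and, per diencephalon library, from 16522465 to 34384860. Reads with more than one alignment made 19.3% ± 2.45 (SD, n = 17) of telencephalon and 4.10% ± 0.264 of diencephalon libraries. A read that fits both a Y model and its X partner equally well would fall in that class, and the part of the unequal share in the region differences below was not tested. Both libraries of control male 304 stood between the regions. On an axis that runs from the mean diencephalon profile at 0 to the mean telencephalon profile at 1, over genes that are no members, its telencephalon library lay at 0.503 and the others at 0.773 to 1.14. Its diencephalon library lay at 0.148 and the others at -0.0711 to 0.0592. Results for the regions are therefore also given without male 304. In bulk tissue, fewer cells of a type and less RNA per cell cannot be told apart.

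The members occupied 49 window numbers from 93 to 157. The identifiers name the program behind each model, with 90 from maker-chrY-snap, 71 from maker-chrY-augustus, 14 from augustus_masked-chrY-processed and 6 from snap_masked-chrY-processed. Their abundance was uneven. Mean CPM had a median of 11.1, with quartiles of 4.45 and 33.3, a lowest value of 1.001 and a highest of 3106. The 19 members at 100 CPM or more took 67.4% of all member counts. A single model, maker-chrY-augustus-gene-111.32, took 35.1%, and 52 members stayed below 5 CPM. From here on CPM is scaled with the normalization factors of the 34 libraries (trimmed mean of M values, TMM).

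The members leaned towards the telencephalon. In the comparison of regions over 34 libraries, with treatment as covariate, 104 of 181 members (57.5%) were higher in the telencephalon and 31 (17.1%) were lower, at an adjusted p under 0.05 in edgeR's quasi-likelihood test over 18923 genes. Among all genes tested, 36.2% were higher and 37.2% lower. Of the members called, 77% were higher, against 49.4% of all genes called. The median log2 fold of the members, telencephalon over diencephalon, was 0.26, and that of all genes was -0.02. The chrY models at or below window 92 gave 86 higher and 42 lower of 193, with a median of 0.12. Ensembl genes gave 6552 higher and 6827 lower of 18166, with a median of -0.02. A difference between these lists was not tested. Both chrY lists have a minimum of 1 CPM that was not set for the Ensembl genes or for all genes. The fit above left the male out, so it did not pair the regions of a male. Standard errors and p values of regions come from that unpaired fit unless a block is named. With the male as a block, 109 members were higher and 34 lower, against 38.5% and 40.9% of all genes. In the unpaired fit without male 304, 97 members were higher and 33 lower, against 34.5% and 38.7% of all genes. When libraries were scaled to their total alone, 81 members were higher and 43 lower, so that 65.3% of the members called were higher. Under that scaling 26.3% of all genes were higher and 48.1% lower, which is 35.3% higher among all genes called. It moved the median of all genes to -0.17 and of the members to 0.11. A change of scaling shifts the folds of all genes nearly alike. The distance between the medians, 0.28 under either scaling, was therefore bound to stay and is no check.

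**Figure D1:**
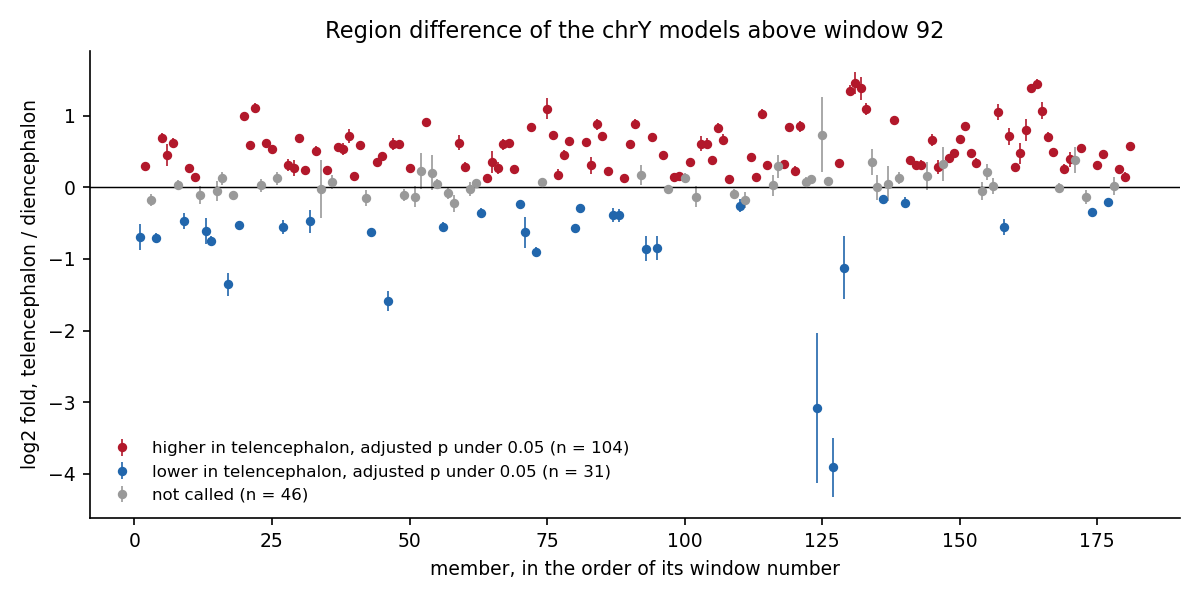
Log2 fold of telencephalon over diencephalon for the 181 members in the order of their window number, with bars of 1 standard error. Red points are the 104 members called higher, blue the 31 called lower and grey the 46 not called; the lowest points are maker-chrY-snap-gene-137.7 at -3.91 and augustus_masked-chrY-processed-gene-137.136 at -3.08.

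The plot of the folds in window order shows red points along the whole range of windows, with blue points between them. Values of a member in the libraries of the regions were fully separated in 45 members, of which 40 were higher and 5 lower in the telencephalon. Over all genes tested, 11.2% were separated with the telencephalon higher and 7.03% with it lower. Without male 304 the separated members were 41 and 8, against 12.2% and 8.95% of all genes. Counted by animal, 72 members were higher in the telencephalon of 17 of 17 males and 13 were lower in 17 of 17. Over all genes tested these shares were 22.2% and 19.5%. Most differences were modest: 11 members were called higher by over 2-fold (4.96% of all genes) and 5 lower by over 2-fold (9.95% of all genes).

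**Figure D2:**
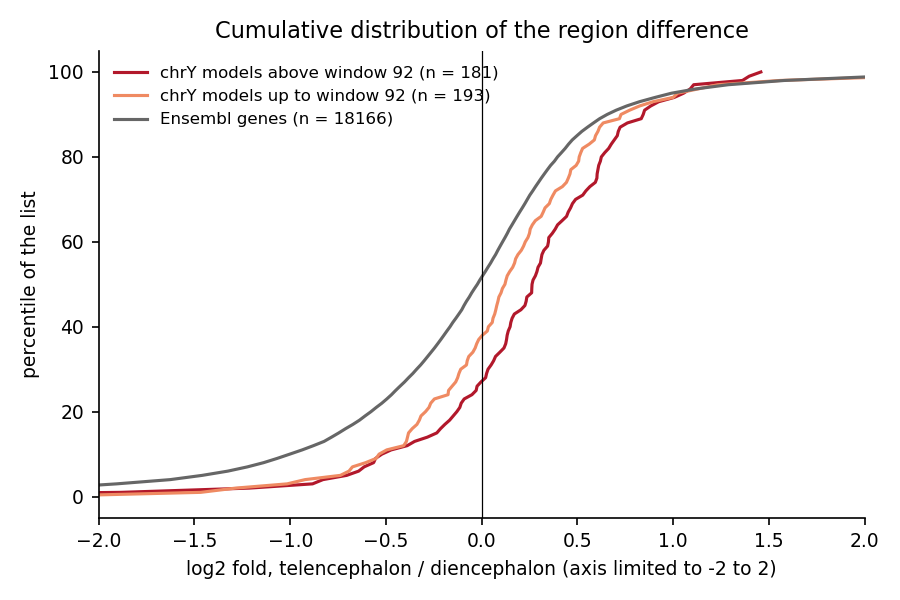
Cumulative distribution of the log2 fold of telencephalon over diencephalon for the 181 members (red), the 193 chrY models up to window 92 (orange) and 18166 Ensembl genes (grey), with the percentile of each list on the vertical axis. The member curve crosses 50% at 0.26, the lower chrY windows at 0.12 and the Ensembl genes at -0.02.

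The cumulative plot shows the members shifted to the right of the Ensembl genes through the middle of the distribution. The curves cross near percentile 96, where the log2 fold was 1.09 for the members and 1.12 for the Ensembl genes. At percentile 99 the members stood at 1.40, below the 2.09 of the Ensembl genes, and at percentile 1 at -1.88, above the -3.04 of the Ensembl genes. The members thus spanned a narrower range of folds at both ends. They are the shorter list and have a minimum of 1 CPM that was not set for the Ensembl genes. The lower chrY windows, with the same minimum, stood at 2.22 at percentile 99 and at -1.47 at percentile 1.

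Among the members higher in the telencephalon, augustus_masked-chrY-processed-gene-140.67 had the largest fold. It ranged from 22.6 to 54.9 CPM (median 35.9, n = 17) over telencephalon libraries and from 6.99 to 21.5 CPM (median 13.5, n = 17) over diencephalon libraries. The lowest telencephalon library lay above the highest diencephalon library. Its log2 fold was 1.46 (SE 0.15, edgeR adjusted p = 3.32e-10).

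The second, maker-chrY-augustus-gene-151.14, was far more abundant. Telencephalon libraries held 193 to 349 CPM (median 285) and diencephalon libraries 83.5 to 129 CPM (median 103), again with no overlap. The log2 fold was 1.44 (SE 0.07, adjusted p = 4.42e-19). The only other member of window 151, maker-chrY-snap-gene-151.2, was also higher, at 6.19 CPM ± 1.45 (SD, n = 17) against 2.95 ± 0.682 (log2 fold 1.07, SE 0.12); this model was picked after its values were seen.

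The third, snap_masked-chrY-processed-gene-149.17, held 139 to 213 CPM (median 186) in telencephalon libraries and 61.4 to 81.1 CPM (median 69.7) in diencephalon libraries. This was the most tightly estimated of the large folds, with a log2 fold of 1.39 (SE 0.05, adjusted p = 1.60e-21), and no library of a region crossed into the range of the other.

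Window 140 held 2 more of the 8 largest increases. Model maker-chrY-snap-gene-140.17 stood at 210 CPM ± 38.2 against 98.3 ± 15.3 (log2 fold 1.09, SE 0.08), with separate ranges. Model maker-chrY-augustus-gene-140.70, which lay just inside the abundance minimum, stood at 1.51 CPM ± 0.408 against 0.576 ± 0.166 (log2 fold 1.38, SE 0.16), also with separate ranges. Model maker-chrY-augustus-gene-139.7 followed with 11.3 CPM ± 1.998 against 4.42 ± 0.566 (log2 fold 1.35, SE 0.08). All 3 were higher in the telencephalon of 17 of 17 males.

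The remaining pair of the 8 came from lower windows. Model maker-chrY-snap-gene-98.5 held 13.3 CPM ± 1.69 against 6.17 ± 1.01 (log2 fold 1.11, SE 0.07), with separate ranges. Model maker-chrY-augustus-gene-123.164 held 1.67 CPM ± 0.362 against 0.775 ± 0.233 (log2 fold 1.097, SE 0.14). The ranges of the latter overlapped, and it was higher in 16 of 17 males. Leaving out male 304 moved none of these 8 log2 folds across the threshold.

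The largest decrease in the telencephalon belonged to maker-chrY-snap-gene-137.7. It ranged from 0 to 1.003 CPM (median 0.0686) in the telencephalon and from 1.29 to 3.43 CPM (median 2.40) in the diencephalon. Every diencephalon library lay above every telencephalon library, 5 telencephalon libraries held no read of it, and the highest telencephalon value was that of male 304. The log2 fold was -3.91 (SE 0.41, adjusted p = 2.13e-10), and it was -4.38 without male 304. This model reached the minimum of 1 CPM through its diencephalon libraries, so its fold describes a model admitted by the region where it is high.

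Model maker-chrY-augustus-gene-108.38 ranged from 2.71 to 9.58 CPM (median 3.93) in the telencephalon and from 11.03 to 16.9 CPM (median 15.1) in the diencephalon. The ranges did not overlap, and the log2 fold was -1.58 (SE 0.14, adjusted p = 3.27e-12). Model maker-chrY-snap-gene-97.0 was likewise lower in 17 of 17 males without overlap, at 0.674 CPM ± 0.279 against 1.69 ± 0.326 (log2 fold -1.36, SE 0.16). Model maker-chrY-snap-gene-122.3 was lower in 17 of 17 males, at 23.0 CPM ± 4.90 against 43.0 ± 3.01 (log2 fold -0.90, SE 0.07). Its ranges overlapped through control male 304 alone, whose telencephalon library held 38.3 CPM. The next highest telencephalon library held 29.2 CPM and the lowest diencephalon library 36.9 CPM.

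A pair of low-abundance models of window 127 were lower as well. Model maker-chrY-augustus-gene-127.145 held 0.744 CPM ± 0.319 against 1.33 ± 0.262 (log2 fold -0.86, SE 0.17). Model maker-chrY-augustus-gene-127.96 held 0.909 CPM ± 0.351 against 1.62 ± 0.444 (log2 fold -0.85, SE 0.17). Their ranges overlapped, and they were lower in 15 and 16 of 17 males. The other 2 of the 8 largest decreases, augustus_masked-chrY-processed-gene-137.136 and maker-chrY-augustus-gene-139.2, differed strongly between males and are described with the males below.

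The most abundant member showed a small difference. Model maker-chrY-augustus-gene-111.32 ranged from 2697 to 3946 CPM (mean 3403 ± 292) in telencephalon libraries, where the diencephalon gave 2411 to 3223 CPM (mean 2829 ± 242). The ranges overlapped, 16 of 17 males were higher in the telencephalon, and the log2 fold was 0.27 (SE 0.04, adjusted p = 9.81e-07). Next in abundance, maker-chrY-augustus-gene-133.20 held 335 CPM ± 25.3 against 251 ± 18.4 (log2 fold 0.42, SE 0.04), and maker-chrY-augustus-gene-122.41 held 323 CPM ± 19.7 against 180 ± 14.8 (log2 fold 0.84, SE 0.04). The ranges of both were separate. Model maker-chrY-snap-gene-155.88 went the other way in 17 of 17 males, at 206 CPM ± 14.95 against 261 ± 15.9 (log2 fold -0.34, SE 0.03).

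The steadiest members were picked by low variation over the 34 libraries of both regions, so a small region difference follows from the choice. Their coefficients of variation were 7.002% for maker-chrY-augustus-gene-133.36, 7.27% for maker-chrY-snap-gene-127.48 and 8.03% for maker-chrY-snap-gene-118.97, where the median over members was 22.7%. The first held 83.2 CPM ± 4.16 in telencephalon and 75.0 ± 3.26 in diencephalon libraries (log2 fold 0.15, SE 0.03), and the second 159 ± 8.54 and 144 ± 7.56 (log2 fold 0.14, SE 0.03). Both differences passed the test. The third held 25.7 ± 2.22 and 24.7 ± 1.75 (log2 fold 0.05, SE 0.04, adjusted p = 0.211) and did not pass.

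Of 43 windows with at least 2 members, 9 had every member higher in the telencephalon (windows 94, 101, 102, 126, 129, 133, 147, 151 and 156) and window 124 had every member lower. Over all members 57.5% were called higher and 17.1% lower, against 36.2% and 37.2% of all genes. A link between direction and window was not tested. The lowest window, 93, was mixed. There, maker-chrY-snap-gene-93.110 was higher (log2 fold 0.68, SE 0.07), as was maker-chrY-augustus-gene-93.150 (0.29, SE 0.04). In the same window, maker-chrY-augustus-gene-93.186 was lower (-0.70, SE 0.07), as was maker-chrY-augustus-gene-93.148 (-0.69, SE 0.18). The fifth model there, maker-chrY-augustus-gene-93.159, had a log2 fold of -0.17 and passed only when the male was a block in the fit (adjusted p = 0.0664 without the block and 0.0211 with it).

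In the highest window, 157, maker-chrY-snap-gene-157.91 was higher (log2 fold 0.58, SE 0.04), as were maker-chrY-snap-gene-157.152 (0.26, SE 0.03) and maker-chrY-snap-gene-157.90 (0.15, SE 0.06). Model maker-chrY-snap-gene-157.110 was lower (-0.21, SE 0.05), and maker-chrY-snap-gene-157.114 did not pass (0.02, SE 0.13). Over the range, the 62 members of windows 93 to 118 gave 30 higher and 12 lower with a median log2 fold of 0.14. The 59 members of windows 119 to 135 gave 39 and 11 with a median of 0.26, and the 60 of windows 136 to 157 gave 35 and 8 with a median of 0.33. By program, maker-chrY-augustus models gave 46 higher and 10 lower of 71, maker-chrY-snap models 51 and 14 of 90, snap_masked models 3 and 2 of 6, and augustus_masked models 4 and 5 of 14. Over all genes tested the shares were 36.2% higher and 37.2% lower, and differences between these blocks of windows or programs were not tested.

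Summed over members, the share of a library's gene counts repeated the direction. Telencephalon libraries gave members 0.945% ± 0.0345 (SD, n = 17) of gene counts, and diencephalon libraries 0.820% ± 0.0450. In 17 of 17 males the telencephalon had the larger share, by 0.124 points ± 0.0577, with the smallest gap at 0.0346 and the largest at 0.248 points. Without maker-chrY-augustus-gene-111.32, whose own share was higher in 12 of 17 males, the gap was 0.0990 points ± 0.0220 and again present in 17 of 17. Without male 304 the mean gap was 0.120 points. The chrY models of lower windows took 0.529% ± 0.0121 and 0.485% ± 0.0154. Their telencephalon share was also the larger in 17 of 17 males, by 0.0439 points ± 0.0119.

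**Figure D3:**
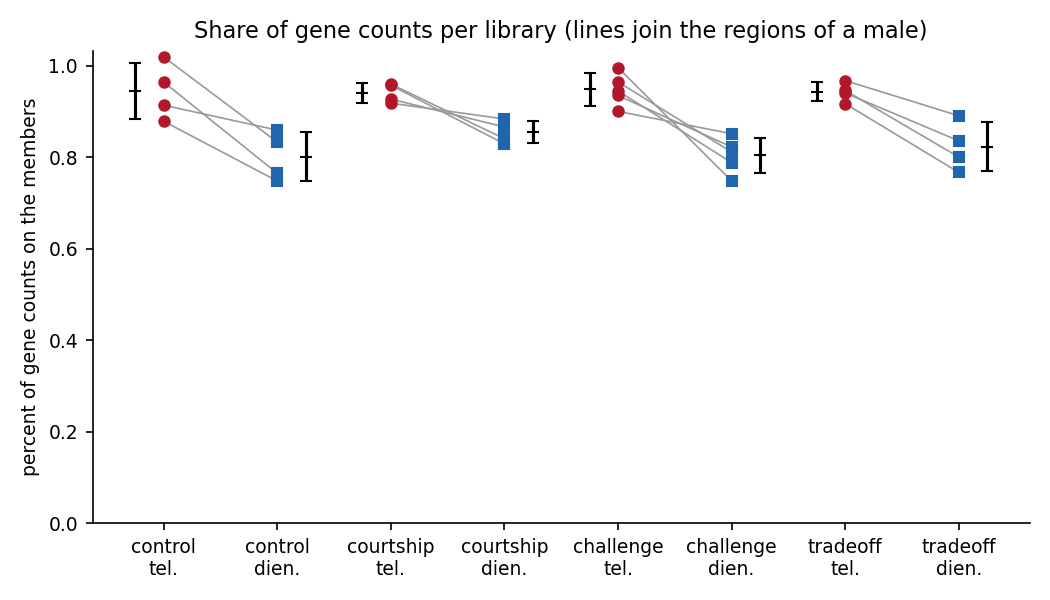
Percent of gene counts on the 181 members in each library, by treatment and region (tel., telencephalon; dien., diencephalon). Red circles and blue squares are libraries, lines join the regions of a male, and the bars beside them give the mean ± 1 SD (n = 4 or 5). Every line falls from telencephalon to diencephalon.

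Within the telencephalon the treatment groups differed little in this share, at 0.944% ± 0.0613 in controls, 0.941% ± 0.0212 with courtship, 0.949% ± 0.0355 with challenge and 0.943% ± 0.0207 with the tradeoff. In the diencephalon they held 0.802% ± 0.0534, 0.855% ± 0.0246, 0.805% ± 0.0387 and 0.824% ± 0.0530 in the same order. The ranges of the groups overlapped in both regions, and no test was made of a sum over members.

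Some members differed between males of the same treatment, a smaller share than over all genes. The test used joins the regions of a male and takes their disagreement as error. It makes no separate test of the males in each region. A test of the males within treatments, which asks whether the libraries of a male resemble each other beyond region and treatment, called 42 of 181 members (23.2%) at an adjusted p under 0.05 in edgeR. The share over all genes tested was 32%, and that of chrY models up to window 92 was 24.4% (47 of 193). The difference between these shares was not tested. By position, 11 of the 62 members of windows 93 to 118 were called, 10 of the 59 of windows 119 to 135 and 21 of the 60 of windows 136 to 157. Without male 304, 51 members were called, against 37.2% of all genes. DESeq2's likelihood ratio test of the same question called 66 members, against 42.3% of all genes with an adjusted p.

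The lowest p belonged to maker-chrY-augustus-gene-137.80 (adjusted p = 1.83e-12). In males 302, 303, 306, 317, 322 and 330 telencephalon libraries held 1.92 to 4.38 CPM of it and diencephalon libraries 1.04 to 2.39 CPM. In the other 11 males they held 46.1 to 58.2 CPM and 26.1 to 34.3 CPM. No male fell between the levels, and the same 6 males were low in both regions. Among all genes tested, these 6 held the lowest values in both regions in 0.0264%. The 6 were picked by this model's own values and the share includes it, so the share is a description. The 6 came from every treatment but courtship. The telencephalon was the higher region in 16 of 17 males. Its region difference passed only with the male as a block (log2 fold 0.74, SE 0.52, adjusted p = 0.205 without the block; 0.81, SE 0.08, adjusted p = 9.51e-09 with it).

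Another model of the same window, augustus_masked-chrY-processed-gene-137.136, ran in the opposite sense in the same 6 males. In their diencephalon it held 10.8 CPM in male 302, 10.97 in male 303, 8.92 in male 306, 8.82 in male 317, 6.25 in male 322 and 8.79 in male 330. The diencephalon libraries of the other 11 males held 0 to 0.127 CPM, at most 3 reads each. In the telencephalon of the 6 males the value was 7.27 CPM in male 322 and 0.156 to 0.692 CPM in the other 5, against 0 to 0.0582 CPM in the remaining males. The males that were lowest for maker-chrY-augustus-gene-137.80 were thus the males highest for this one, in each region. In the telencephalon this rests on few reads outside male 322. Males 302, 303, 306, 317 and 330 had 4 to 15 reads there, against at most 2 in the remaining males. The same 6 males held the highest values in both regions in 0.0211% of all genes, this model included. They did so in 1 of 181 members (0.552%), which is this model, and in 1 of 193 chrY models of lower windows (0.518%). For augustus_masked-chrY-processed-gene-137.136 the male test gave an adjusted p of 2.37e-03. This model reached the minimum of 1 CPM through the diencephalon of the 6 males and the telencephalon of male 322. Its male test, its region fold and its place in these counts therefore describe a model admitted by the libraries where it is high.

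The region difference of augustus_masked-chrY-processed-gene-137.136 was among the 8 largest decreases (log2 fold -3.08, SE 1.04, adjusted p = 9.32e-03; with the male as a block -3.81, adjusted p = 2.70e-04). Leaving out 1 male moved this fold, to -4.67 without male 322 and to -2.65 without male 303. Without male 304, the telencephalon was lower in 8 of 16 males and higher in 3. In male 322 it was the higher region, at 7.27 against 6.25 CPM. The telencephalon library of male 322, at 0.773, was the nearest to the diencephalon on the region axis after that of male 304. The part of that position in its value of 7.27 CPM was not tested. The third member of window 137 with a large difference, maker-chrY-snap-gene-137.7, did not follow the males (male test adjusted p = 0.758), and its telencephalon value in male 322 was 0.0418 CPM.

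A set of 5 of these males, 303, 306, 317, 322 and 330, held the lowest values of 4 further members in both regions. Model maker-chrY-augustus-gene-139.2 (male test adjusted p = 6.04e-09) held 0.582 to 2.51 CPM in the telencephalon of the 5 and 7.96 to 19.8 CPM in the other 12. In the diencephalon it held 1.93 to 2.65 CPM and 17.6 to 32.5 CPM. Within either set the diencephalon was higher, except in male 322. The log2 fold over all males was -1.12 (SE 0.44, adjusted p = 0.022), with an SE of 0.11 and an adjusted p of 4.87e-09 when the male was a block.

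Model maker-chrY-augustus-gene-135.71 (male test adjusted p = 1.51e-09) held 18.3 to 22.3 CPM in the telencephalon of the 5 males and 36.8 to 49.0 CPM in the other 12. In the diencephalon it held 12.5 to 19.3 CPM and 31.9 to 39.0 CPM. The 5 males thus held a reduced but sizeable level in this model, while maker-chrY-augustus-gene-139.2 stayed below 3 CPM in them. Its telencephalon was higher in 17 of 17 males, and that difference passed only with the male as a block (log2 fold 0.29, adjusted p = 0.107 without it; 0.30, adjusted p = 3.86e-07 with it).

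In maker-chrY-augustus-gene-114.13 (male test adjusted p = 8.96e-05) the 5 males held 0.411 to 0.788 CPM and the others 1.39 to 2.81 CPM in the telencephalon, and 0.406 to 0.642 against 1.20 to 2.24 CPM in the diencephalon. In maker-chrY-snap-gene-119.170 (male test adjusted p = 2.41e-06) the step was smaller but again complete. The 5 males held 57.9 to 66.8 CPM and the others 76.9 to 97.2 CPM in the telencephalon, and 39.0 to 45.8 against 51.7 to 64.3 CPM in the diencephalon. That model was also higher in the telencephalon of 17 of 17 males (log2 fold 0.60, SE 0.07, adjusted p = 8.84e-09).

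**Figure D4:**
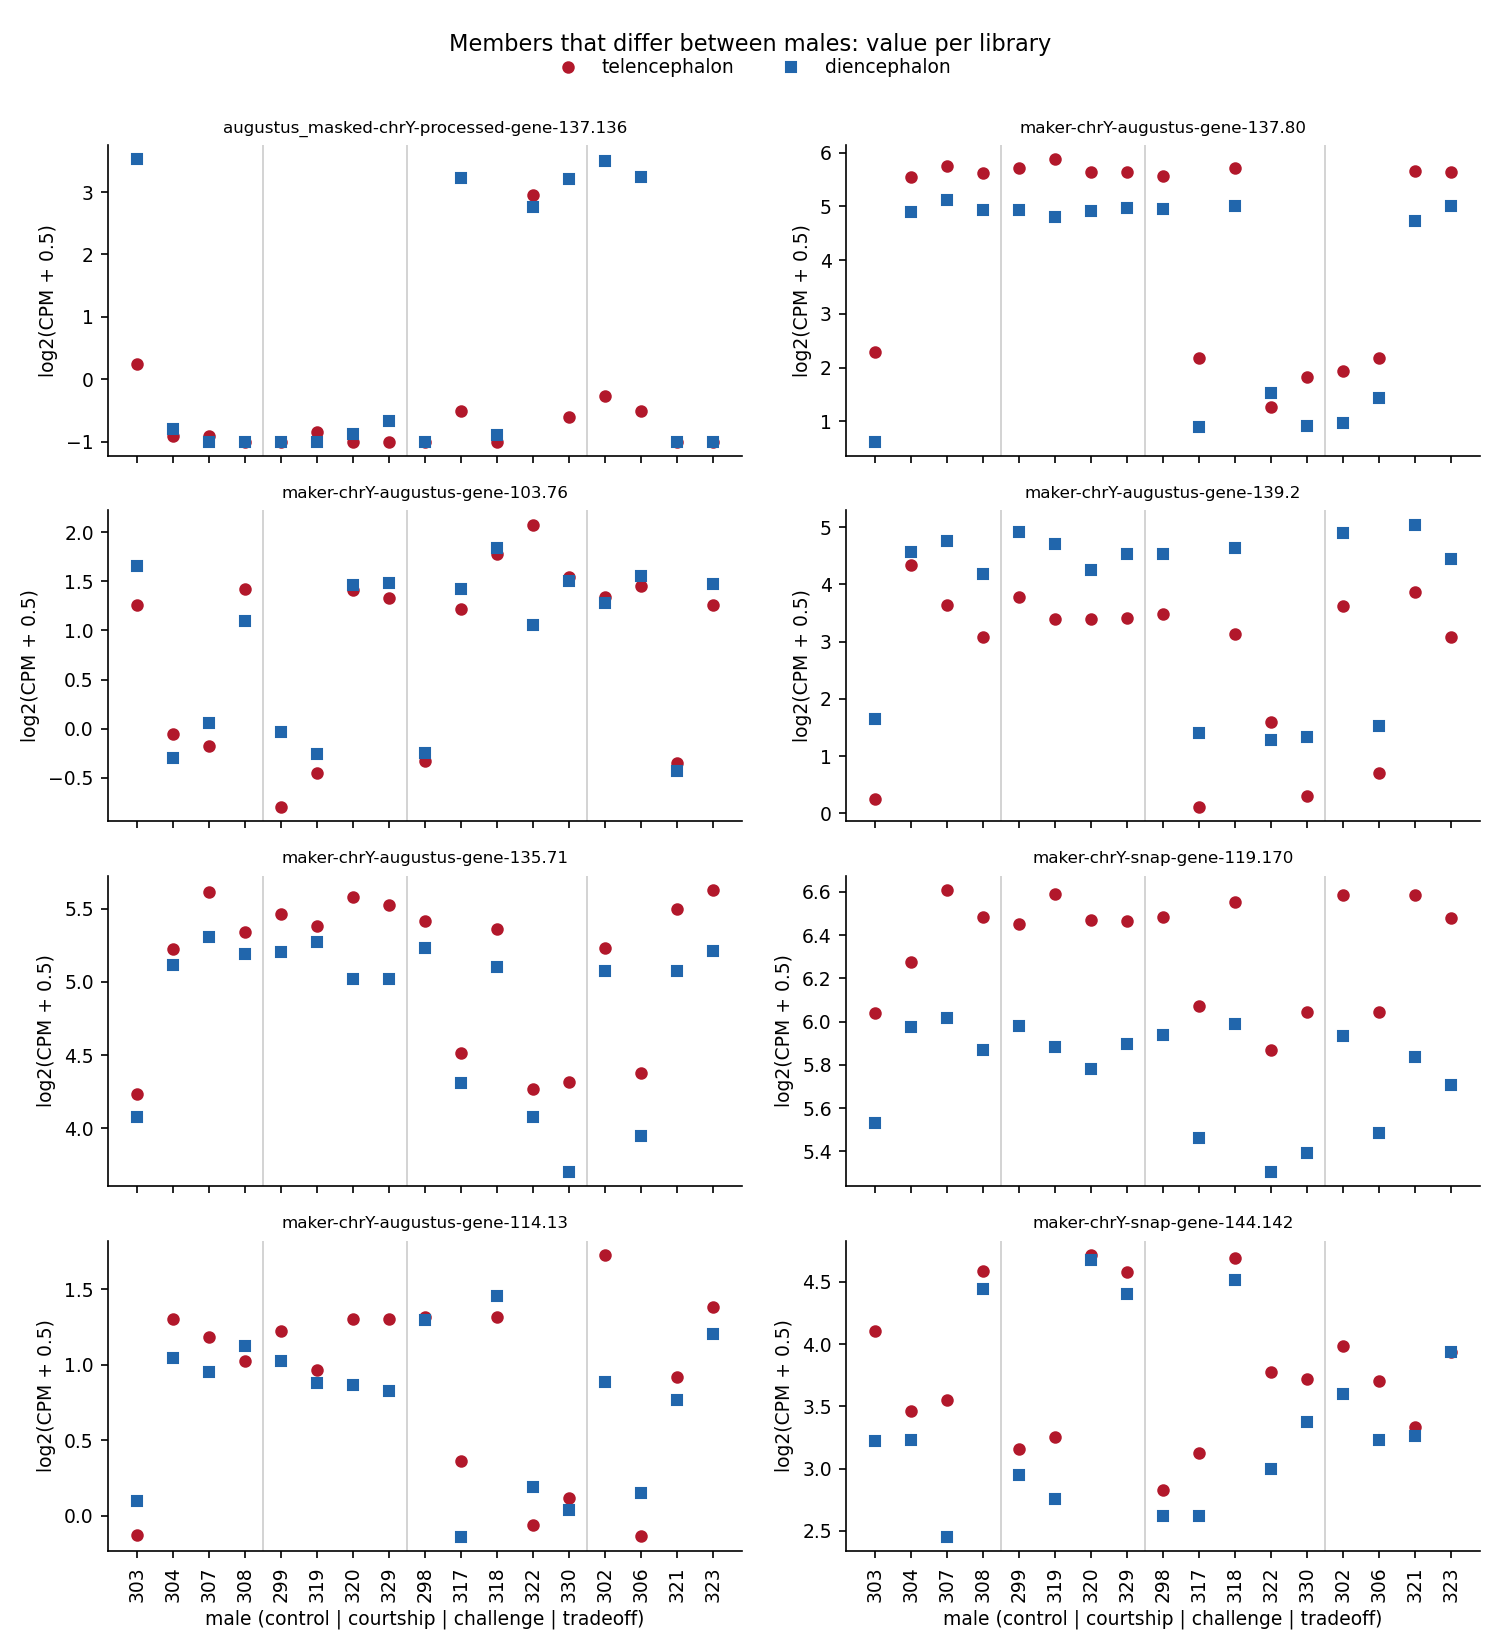
Log2(CPM + 0.5) of 8 members in the telencephalon (red circles) and diencephalon (blue squares) of each male, with males ordered by treatment and grey lines between treatments. Males 303, 306, 317, 322 and 330 sit low in 5 of the panels, with male 302 joining them for maker-chrY-augustus-gene-137.80, and the same 6 males sit high in the diencephalon for augustus_masked-chrY-processed-gene-137.136.

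The males of these sets were picked from the members' own values, so the counts that follow are a description. The 5 males held the lowest values in both regions in 4 of 181 members (2.21%), in 2 of 193 chrY models of lower windows, in 11 of 18166 Ensembl genes and in 0.0898% of all genes tested. The lower-window models were maker-chrY-snap-gene-92.27 and maker-chrY-snap-gene-92.28, both at the median window itself. A split of the males at the same place in both regions, with a gap of at least 0.5 on the log2(CPM + 0.5) scale, was found in 5 members (2.76%), in 1.55% of the lower chrY windows and in 0.745% of all genes. These 5 were maker-chrY-augustus-gene-137.80, maker-chrY-augustus-gene-139.2, maker-chrY-augustus-gene-135.71, maker-chrY-augustus-gene-114.13 and maker-chrY-augustus-gene-103.76.

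The last of these split the males elsewhere. Model maker-chrY-augustus-gene-103.76 (male test adjusted p = 1.12e-06) held 0.0761 to 0.466 CPM in the telencephalon of males 298, 299, 304, 307, 319 and 321 and 1.82 to 3.72 CPM in the other 11. In the diencephalon it held 0.241 to 0.542 CPM and 1.58 to 3.07 CPM. These 6, picked by this model's own values, held the lowest values in both regions in 0.0264% of all genes, this model included. Among the 193 chrY models of lower windows they held the lowest values in 0 and the highest in 3 (1.55%). They share none with the 6 that were low for maker-chrY-augustus-gene-137.80. The model showed no called region difference (log2 fold -0.03, SE 0.40, adjusted p = 0.956).

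In maker-chrY-snap-gene-144.142 (male test adjusted p = 7.39e-08) males 308, 318, 320 and 329 stood apart on the high side. They held 23.6, 25.3, 25.8 and 23.4 CPM in the telencephalon, where the others held 6.61 to 16.7 CPM, and 21.2, 22.4, 25.1 and 20.6 CPM in the diencephalon, where the others held 4.96 to 14.8 CPM. These males were picked by this model's own values, and the share of all genes where they are highest is not given. The model did not meet the rule for a split used above. Its telencephalon was higher in 17 of 17 males, a difference that passed only with the male as a block (log2 fold 0.32, adjusted p = 0.221; with it 0.37, adjusted p = 7.15e-05).

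In maker-chrY-augustus-gene-143.67 (male test adjusted p = 3.35e-05) males formed a continuous range, from 13.5 to 24.98 CPM over telencephalon libraries and from 12.4 to 22.4 CPM over diencephalon libraries. Male 298 was lowest in both regions. Its region difference also passed only with the block (log2 fold 0.13, adjusted p = 0.137; with it 0.13, adjusted p = 2.94e-03). Over all members, 9 passed between regions only with the block, 1 only without it, and 134 in both fits. The one lost with the block was maker-chrY-snap-gene-119.111 (log2 fold 0.35, adjusted p = 0.0388 in edgeR; with the block 0.34, adjusted p = 0.0564).

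Treatments moved no member past the threshold. In each of the 12 comparisons (6 pairs of treatments in each region), edgeR called no member (0 of 179 in the telencephalon, 0 of 181 in the diencephalon) at an adjusted p under 0.05, against 0% of all genes. DESeq2 also called 0 members in all 12, where it called 0 to 5 of all genes per comparison. At an unadjusted p under 0.05, telencephalon courtship against control held 2 members (2.51% of all genes), challenge against control 1 (2.66%) and tradeoff against control 1 (2.75%). Tradeoff against courtship held 2 (3.81%), tradeoff against challenge 3 (3.44%) and courtship against challenge 2 (3.42%). The diencephalon held 2 (2.34%), 1 (2.61%), 2 (3.14%), 5 (4.51%), 2 (3.53%) and 2 (3.93%) in the same order. Members were thus no more frequent than all genes in any of them. The most, 5 members (2.76%), came with tradeoff against courtship in the diencephalon.

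**Figure D5:**
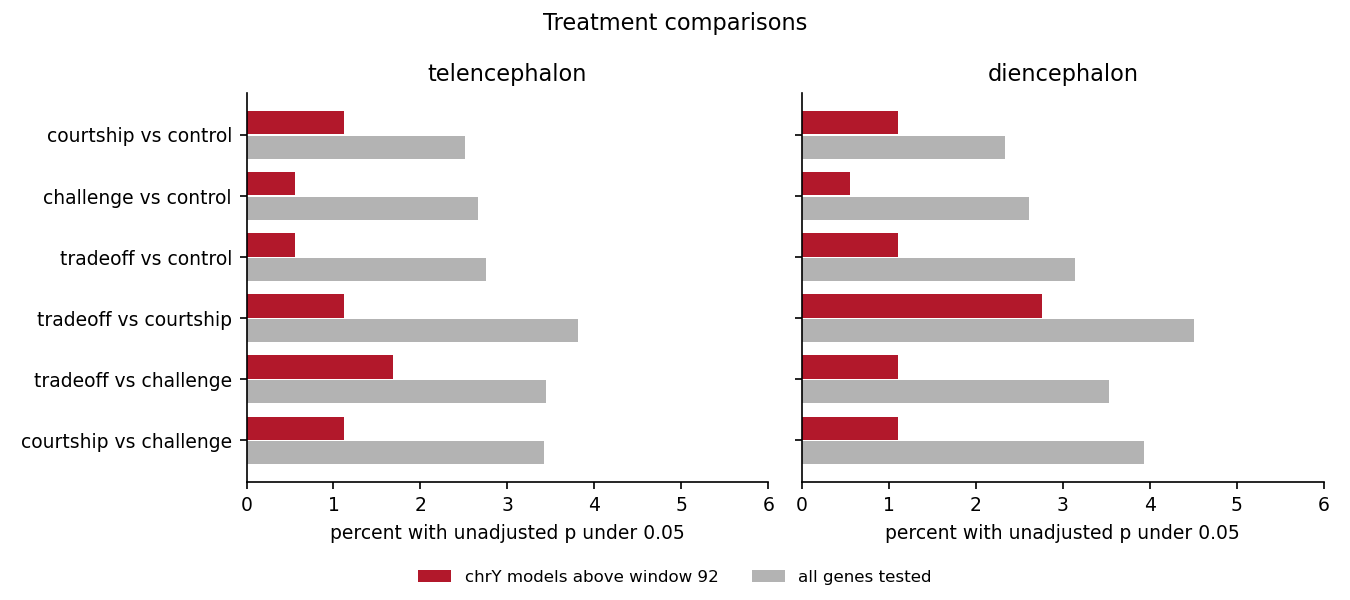
Percent of members (red; n = 179 in the telencephalon, 181 in the diencephalon) and of all genes tested (grey; n = 18277 and 18399) with an unadjusted p under 0.05 in each of 6 treatment comparisons per region. The red bar is shorter than the grey one in all 12, with the longest at 2.76% for tradeoff against courtship in the diencephalon.

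Approximate 95% intervals, from the SE and a normal quantile, show how large a treatment difference could have been. Such intervals are somewhat too narrow for small groups. They lay wholly within a 2-fold change either way for 89.4% to 91.1% of members in the telencephalon and for 92.3% to 96.1% in the diencephalon. The share over all genes was 80.8% to 82.7% and 88.8% to 90.4%. The members have a minimum of 1 CPM that was not set for all genes. Median sizes of the log2 fold over members were 0.07 to 0.09 in telencephalon comparisons and 0.06 to 0.11 in diencephalon comparisons. Over all genes they were 0.09 to 0.10 and 0.07 to 0.09. The members had the smaller median in every telencephalon comparison. In the diencephalon they had the larger one, except in courtship and challenge against control.

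In the telencephalon the lowest p of a member was that of augustus_masked-chrY-processed-gene-97.89 in tradeoff against courtship. The tradeoff males held 5.67, 5.42, 6.67 and 7.98 CPM, and the courtship males 4.53, 3.72, 4.65 and 5.29 CPM. Every tradeoff value lay above every courtship value, yet the log2 fold of 0.50 (SE 0.18, unadjusted p = 0.0153 in edgeR's fit over all genes) had an adjusted p of 0.999. The same comparison in the diencephalon gave 0.20 (SE 0.20).

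In the diencephalon the lowest p was that of maker-chrY-augustus-gene-123.142 in courtship against control. The courtship males held 13.5, 12.6, 14.2 and 14.9 CPM, and the controls 11.6, 10.3, 9.60 and 11.6 CPM. The groups did not overlap. The log2 fold of 0.36 (SE 0.09, unadjusted p = 1.17e-03 in edgeR's fit over all genes) had an adjusted p of 1. In the telencephalon it was 0.18 (SE 0.13).

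The sets of males described above were spread unevenly over the treatments, and the members that split them carry wide errors there. Of the 5 males low for maker-chrY-augustus-gene-139.2, 3 were challenge, 1 was control, 1 was tradeoff and none was courtship. Of the 6 males low for maker-chrY-augustus-gene-137.80, 3 were challenge, 2 were tradeoff and 1 was control. In the telencephalon, maker-chrY-augustus-gene-137.80 averaged 52.4 CPM ± 4.02 (SD, n = 4) with courtship, 38.2 ± 22.8 (n = 4) in controls, 26.6 ± 26.4 (n = 4) with the tradeoff and 21.6 ± 25.5 (n = 5) with challenge. Courtship against challenge gave a log2 fold of 1.29 with an SE of 1.04 (unadjusted p = 0.233 in edgeR's fit, adjusted p = 1). In the diencephalon the corresponding value was 1.104 with an SE of 1.06. For maker-chrY-augustus-gene-139.2 courtship against challenge gave 1.25 (SE 0.88) in the telencephalon and 1.16 (SE 0.86) in the diencephalon. For augustus_masked-chrY-processed-gene-137.136, high in the 6 males, courtship against challenge in the diencephalon gave -6.59 (SE 2.82, unadjusted p = 0.0353 in edgeR's fit, adjusted p = 0.999). Tradeoff against courtship gave 6.65 there (SE 2.86, unadjusted p = 0.036 in the same fit). Both are among the members counted above at an unadjusted p under 0.05. Low and high males of these models occurred within the control, the challenge and the tradeoff groups. The part of the male sets in these treatment values was not tested.

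The variance of the log2 values was split by source for each member. At the median over members, region took 48.9% of the variance, males within treatments 25.5%, treatment 3.48% and the remainder 14.8%. Over all genes tested the medians were 42.1%, 30.1%, 3.95% and 14.6%, and over chrY models of lower windows 36.4%, 34.3%, 4.20% and 16.2%. A share that an effect takes by its degrees of freedom alone was not subtracted.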

How the data were processed

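Messenger RNA was sequenced from the telencephalon and diencephalon of 17 males (34 libraries; stranded TruSeq kit and NovaSeq, per the labels' protocols). The deposited values are raw read counts per gene model, aligned with STAR and counted with HTSeq per the submitters' processing notes. The sources used here do not give versions, build, annotation or strand setting, so reads of overlapping or antisense models and of X or Y copies may be split or dropped. Summary rows that name no gene (not-unique, no-feature and ambiguous reads made 19.3%, 38.5% and 0.631% of telencephalon libraries and 4.10%, 35.31% and 1.17% of diencephalon libraries) stayed out of library sizes.

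edgeR 4.0.16 in R 4.3.3 (TMM, filterByExpr, robust quasi-likelihood test, Benjamini-Hochberg at 0.05 over all genes) compared regions with treatment as covariate, males within treatments with region and treatment as covariates, and treatments within each region. Standard errors are the log2 fold divided by the square root of F. Split males were sought by the widest gap on log2(CPM + 0.5), and variance shares are sequential sums of squares. The members and lists were chosen with earlier results of these data known. Named are the 8 largest called log2 folds in each direction, the 8 lowest p of the male test, the lowest treatment p per region, the 5 most abundant and 3 steadiest members, those of the lowest and highest window, and those beside the CPM minimum; others are said to be picked later. On the region axis, a library's place is its projection on the difference of mean profiles, its own male left out.

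The number in the labels is the male, so it pairs the regions. Over genes, deviations from group means had a mean r of 0.365 (0.00223 to 0.531) for a male's own pair of libraries and a median r of -0.0179 for pairs of different males. The 56 pairs of libraries of a group differed beyond sampling noise (chi-square per degree of freedom 12.2 to 97.6). Alternatives were DESeq2 1.42.0, other scalings, no filter, a 5 CPM minimum, a male block and leaving out each male. Counts are not independent molecules, as no molecular identifiers are named.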

Additional observations from a re-analysis of the deposited data

Results flagged for a closer look

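For named members and the share of gene counts on all members, 96 sets of 4 or 5 libraries were searched. A value that stands off from the others was found in 12, all of them sets of named members. Chance alone gives about 1 in 20 where values follow a normal distribution. The members searched include ones picked for differing between males, and some hold mostly 0 reads or fall into separate levels. For those the rate of 1 in 20 does not hold, so the sets found are a description.

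Control male 303 gave 4 of them. It held 4.38 CPM of maker-chrY-augustus-gene-137.80 in the telencephalon, against 46.1 to 53.6 in the other controls, and 1.04 CPM in the diencephalon, against 29.2 to 34.3. For augustus_masked-chrY-processed-gene-137.136 it held 11 CPM in the diencephalon, against 0 to 0.0780, and 0.692 CPM in the telencephalon, against 0 to 0.0358.

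Challenge male 322 held 7.27 CPM of augustus_masked-chrY-processed-gene-137.136 in the telencephalon, against 0 to 0.206 in the other challenge males. Challenge male 318 held 22.4 CPM of maker-chrY-snap-gene-144.142 in the diencephalon, against 5.65 to 9.89. Tradeoff male 306 held 14.9 CPM of maker-chrY-augustus-gene-135.71 in the diencephalon, against 33.2 to 36.5, and 5.10 CPM of augustus_masked-chrY-processed-gene-97.89, against 5.50 to 5.54. Tradeoff male 302 held 21.8 CPM of maker-chrY-augustus-gene-143.67 in the diencephalon, against 16.6 to 17.0.

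In the courtship group the telencephalon of male 299 held 13.2 CPM of maker-chrY-augustus-gene-139.2, against 10 to 10.1, and that of male 319 held 96.0 CPM of maker-chrY-snap-gene-119.170, against 87.0 to 88.2. Male 319 also held 0.0582 CPM of augustus_masked-chrY-processed-gene-137.136, which is 2 reads, against 0 in the other courtship males.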

How the results depend on the processing

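Leaving out each male in turn gave 97 to 105 members higher and 31 to 33 lower in the telencephalon, 31 to 51 members in the male test (31 without male 318 and 51 without male 304), and a share gap of 0.116 to 0.130 points. Of these fits, shares of all genes are given only for the one without male 304. The other counts are therefore not read as a result about the members. With the male as a block, 109 members were higher and 34 lower (38.5% and 40.9% of all genes), and other named members whose region call changed with the block have both values beside them. A minimum of 5 CPM, which leaves fewer members, gave 18 called lower and 87 higher. The higher members were then 82.9% of those called, against 77% in the main fit. The reason for that rise was not tested, and no share of all genes at that minimum is given. DESeq2's likelihood ratio test called 66 members in the male test, against 42.3% of all genes with an adjusted p, and the cause was not tested. Between regions, DESeq2 and its size factors in edgeR each gave 99 members higher and 32 lower. No share of all genes is given for either setting. Every treatment comparison gave 0 members under each alternative run. Of all genes, DESeq2 called 0 to 5 per comparison, and fits of the compared groups alone called 0 to 8. For the other alternatives no count over all genes is given. The 16 region folds named for their size and the 8 lowest male-test p values had 520 alternatives. All of these kept their direction and side of the threshold. Scaling by library size alone was chosen after seeing the data. Over Ensembl counts alone the share gap was 0.128 points. Members near 1 CPM rest on few reads.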
